A study of Mus musculus with 4 samples.

Results

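The markers of cortical interneuron classes examined here are 10 genes, *Pvalb*, *Sst*, *Vip*, *Npy*, *Cck*, *Calb1*, *Calb2*, *Reln*, *Lhx6* and *Htr3a*. They were taken by name from 23420 gene symbols in the count tables, without regard to their values, and all 10 were present in every sample and passed the filter on low counts. RNA came from the prefrontal cortex (PFC) of C57BL6/J mice at 6 to 8 weeks of age, all injected in the PFC with adeno-associated virus serotype 9 (AAV9). The control group (2 samples) is labelled as given GFP-AAV9, and the *Ash1L* shRNA group (2 samples) received a virus carrying a short hairpin RNA against *Ash1l*, which encodes a histone methyltransferase. The study's methods describe a scrambled hairpin as the control virus, which the labels do not mention. The hairpin was driven by the U6 promoter, which is not restricted to one cell type, and tissue was punched where GFP was visible, without sorting of cells. The methods describe pools of mice for each sample, whereas the series description counts 3 knockdown and 2 control mice. The p-values therefore measure only the spread between these samples.

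Cortical interneurons are the local GABA-releasing cells that restrain pyramidal neurons. Cells that express *Pvalb* inhibit the cell body and axon initial segment, cells that express *Sst* inhibit dendrites, and cells that express *Vip* mostly inhibit other interneurons. Most *Pvalb* and *Sst* cells arise from the medial ganglionic eminence and keep *Lhx6*, whereas *Vip* and *Reln* cells that carry *Htr3a* arise mainly from the caudal ganglionic eminence. Several of the markers are not restricted to interneurons, since pyramidal neurons also transcribe *Cck* and *Calb1*. In tissue RNA, fewer cells of a type and less RNA per cell cannot be told apart.

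Total counts per sample ran from 14251190 to 35764874, and those of the markers from 110 (*Htr3a*, control sample 1) to 9933 (*Cck*, control sample 2). Counting error was thus between 9.53% and 1% of a count, which covers counting error only. *Ash1l* was at 245 and 290 CPM (counts relative to the library total, scaled by the TMM method of edgeR) in control and at 216 and 138 in *Ash1L* shRNA samples 1 and 2 (log2 fold change -0.60, SE 0.22). The reduction was larger in shRNA sample 2, and that sample stood apart from the other 3 in further ways. The immediate-early gene *Fos* was at 630 CPM there against 27.5 to 39.3 in the other samples, and *Npas4* was at 529 against 13.3 to 26.1. The summed CPM of 7 microglia markers was 307 in shRNA sample 2 and 603 to 719 in the others. Every marker result below is therefore given per sample, and values without shRNA sample 2 or another sample are given where they change a call.

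A gene was called lower or higher at an unadjusted p under 0.05 and at least a 1.2-fold change in edgeR's quasi-likelihood test, the limits the study's methods use. By this rule 5 of the 10 markers were called lower, *Pvalb*, *Sst*, *Calb1*, *Reln* and *Lhx6*, and 0 were called higher. Of all 16232 genes tested, 8.28% were called lower and 8.61% higher, 16.9% in all. The median log2 fold change was -0.47 over the 10 markers and -0.00 over all genes. Both *Ash1L* shRNA samples lay below both controls for 7 markers, compared with 26.8% of all genes, and both lay above for 0 markers, compared with 26.5%. The other 3, *Npy*, *Cck* and *Calb2*, had overlapping groups. Adjusted p (Benjamini-Hochberg over all genes) was above 0.05 for all 10, with a lowest value of 0.2503 for *Reln*, and of all genes 0.00616% were lower at an adjusted p under 0.05. With DESeq2, 2 markers passed an adjusted p of 0.05, *Pvalb* at 0.02545 and *Reln* at 0.03359, and with edgeR's likelihood ratio test only *Pvalb* did. Across 13 alternative settings the adjusted p of *Pvalb* ranged from 0.02545 to 0.39 and that of *Reln* from 0.03359 to 0.39.

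**Figure D1:**
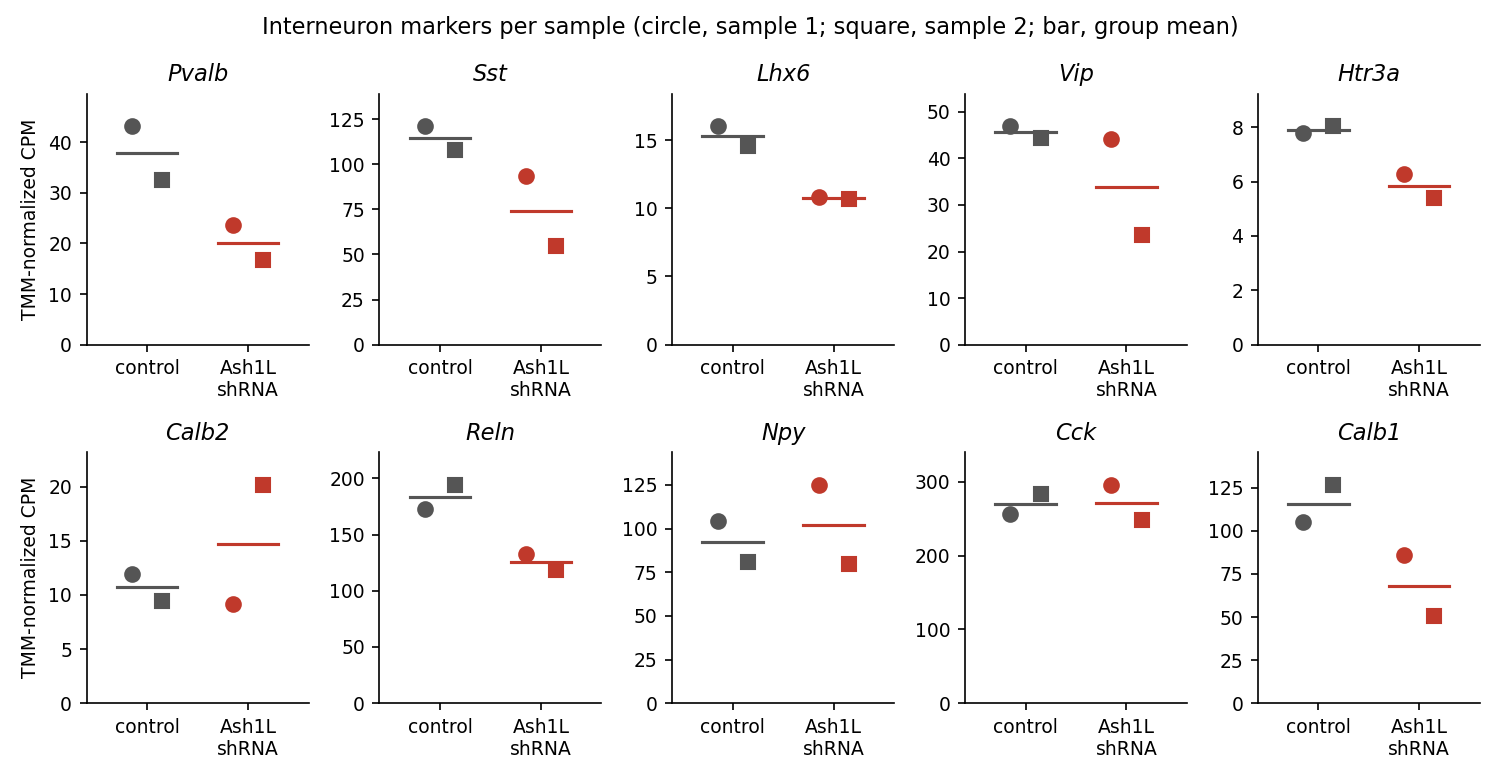
TMM-normalized CPM of each of the 10 markers (vertical axes, each from 0) in the 2 control and 2 *Ash1L* shRNA samples, with circles for sample 1, squares for sample 2 and bars for group means. For *Pvalb*, *Sst*, *Lhx6*, *Vip*, *Htr3a*, *Reln* and *Calb1* both shRNA points lie below both control points, and for *Npy*, *Cck* and *Calb2* the groups overlap.

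*Pvalb* encodes parvalbumin, the calcium-binding protein of fast-spiking basket and chandelier cells, and lies at chr15:78191114-78206400 on the minus strand (mm10). Its transcript was also the target of a PCR primer pair in the supplement. The product of 110 bases lies inside the coding sequence and crosses the junction between exons 2 and 3 of 4 in transcript ENSMUST00000005860.15 (chr15:78201292-78202586). It was read from the annotated transcript and is shown because it places that assay on the gene counted here, with the primer-matching ends in capitals.

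Pvalb product: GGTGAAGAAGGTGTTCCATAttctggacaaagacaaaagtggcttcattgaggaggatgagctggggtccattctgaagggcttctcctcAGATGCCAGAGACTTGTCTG

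*Pvalb* was at 43.1 and 32.5 CPM in the control samples and at 23.6 and 16.6 CPM in *Ash1L* shRNA samples 1 and 2. Both shRNA samples lay below both controls. The group means were 37.8 ± 7.51 and 20.1 ± 4.93 CPM (SD, n = 2 each), a level 1.87-fold lower with shRNA. Its log2 fold change of -0.90 (SE 0.22, adjusted p = 0.2533 in edgeR's quasi-likelihood test) was the largest decrease among the 10 markers. *Pvalb* was also called lower with each sample left out in turn, with log2 fold changes from -1.18 to -0.67.

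*Lhx6* encodes the LIM homeodomain factor that *Pvalb* and *Sst* cells keep from their shared origin (chr2:36081953-36105408, minus strand). It was at 16.0 and 14.6 CPM in control and at 10.8 and 10.7 CPM with *Ash1L* shRNA. The 2 shRNA samples were nearly equal for this gene, and both lay below both controls. Its log2 fold change was -0.50 (SE 0.17, adjusted p = 0.2599 in the edgeR test). The call was lost without control sample 1 (-0.43) and without control sample 2 (-0.58), at nearly the same size.

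*Sst*, the gene of the dendrite-targeting class, encodes the neuropeptide somatostatin (chr16:23889573-23890958, minus strand). It was at 121 and 108 CPM in control and at 93.5 and 54.9 CPM in *Ash1L* shRNA samples 1 and 2. The shRNA samples both lay below the controls, but shRNA sample 2 was much further below them than sample 1. The log2 fold change was -0.62 (SE 0.25, adjusted p = 0.2932 in the edgeR test), just inside the limit of the call. Without shRNA sample 2 it was -0.29 and no longer called. The call was also lost without control sample 1 (-0.53) and without control sample 2 (-0.71).

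*Vip* encodes vasoactive intestinal peptide, the peptide of disinhibitory interneurons (chr10:5639218-5647617, plus strand). It was at 46.9 and 44.4 CPM in control, at 44.2 in *Ash1L* shRNA sample 1 and at 23.4 in shRNA sample 2. On the log2 scale sample 1 lay close to the control mean (-0.05) and sample 2 far below it (-0.96). The fitted log2 fold change was -0.43 (SE 0.29, adjusted p = 0.4755 in the edgeR test) and was not called. It was -0.04 without shRNA sample 2, and without shRNA sample 1 it was -0.96 and past the call rule.

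*Htr3a* encodes the pore-forming subunit of the serotonin-gated ion channel that marks interneurons of caudal origin (chr9:48899213-48911099, minus strand). It was at 7.79 and 8.04 CPM in control and at 6.28 and 5.40 CPM with *Ash1L* shRNA. The groups did not overlap, as was true of 53.2% of all genes, and the log2 fold change of -0.44 (SE 0.22, adjusted p = 0.3523 in the edgeR test) missed the call. *Htr3b*, the other subunit gene of this channel, was at 0 counts in all samples but one and was not tested.

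*Calb2* encodes calretinin, a calcium-binding protein that part of the *Vip* cells contain (chr8:110137502-110168210, minus strand). It was at 11.97 and 9.46 CPM in control, at 9.20 in *Ash1L* shRNA sample 1 and at 20.2 in shRNA sample 2. Unlike every other marker, it was highest in shRNA sample 2 while shRNA sample 1 was close to the controls. The fitted log2 fold change was 0.46 (SE 0.38, adjusted p = 0.5597 in the edgeR test). It was 0.92 and called higher without shRNA sample 1, and -0.20 without shRNA sample 2. Of the 7 striatal neuron markers counted, 3 were called higher and 1 lower, compared with 8.61% and 8.28% of all genes. Their median log2 difference from the control mean was 0.28 in shRNA sample 1 and 1.03 in shRNA sample 2. Their summed CPM was 194 to 204 in control, 231 in shRNA sample 1 and 320 in shRNA sample 2. The defining striatal gene *Drd2*, which was called higher (log2 fold change 1.29, SE 0.52), was at 0.921 and 0.969 CPM in control, 1.42 in shRNA sample 1 and 3.28 in shRNA sample 2. The part of striatal tissue in the *Calb2* value was not tested.

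*Reln* encodes reelin, a secreted matrix protein of *Lamp5* cells and of part of the *Sst* cells in the adult cortex (chr5:21884454-22344702, minus strand). It was at 173 and 194 CPM in control and at 133 and 118 CPM with *Ash1L* shRNA. Both shRNA samples lay below both controls and were 0.16 log2 units apart. The group means were 184 ± 15.3 and 125 ± 10.1 CPM (SD, n = 2 each). The log2 fold change was -0.55 (SE 0.12, adjusted p = 0.2503 in the edgeR test), the smallest adjusted p of the 10 markers. *Reln* was called lower with each sample left out, with log2 fold changes from -0.64 to -0.47.

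*Calb1* encodes calbindin, a calcium-binding protein of many *Sst* cells and of superficial pyramidal neurons (chr4:15881264-15908064, plus strand). It was at 105 and 127 CPM in control and at 85.8 and 50.3 CPM in *Ash1L* shRNA samples 1 and 2. As with *Sst*, both shRNA samples were below the controls and sample 2 was the lowest by far. The log2 fold change was -0.77 (SE 0.26, adjusted p = 0.2622 in the edgeR test). It was -0.43 without shRNA sample 2 and -1.21 without shRNA sample 1. The call was lost without control sample 2 (-0.63).

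*Npy* and *Cck*, both abundant neuropeptide genes, were not called in either direction. *Npy*, the gene of neuropeptide Y, is expressed by neurogliaform and many *Sst* cells (chr6:49822710-49829507, plus strand). It was at 104 and 80.7 CPM in control and at 125 and 79.5 CPM in *Ash1L* shRNA samples 1 and 2, so the shRNA samples spanned the controls. Its log2 fold change was 0.15 (SE 0.24, adjusted p = 0.7783 in the edgeR test). Single samples set its direction, since it was 0.44 and called higher without shRNA sample 2, -0.22 without shRNA sample 1 and -0.03 without control sample 2.

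*Cck*, the gene of cholecystokinin, is expressed by a class of basket cells and by pyramidal neurons (chr9:121489824-121495694, minus strand). It was at 257 and 283 CPM in control and at 296 and 248 CPM with *Ash1L* shRNA. The controls lay between the shRNA samples, and the log2 fold change was 0.01 (SE 0.13, adjusted p = 0.9753 in the edgeR test). Its sign turned under scaling to GABAergic genes (-0.026), under an offset for gene length (-0.023), without control sample 1 (-0.05) and without shRNA sample 1 (-0.13).

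**Figure D2:**
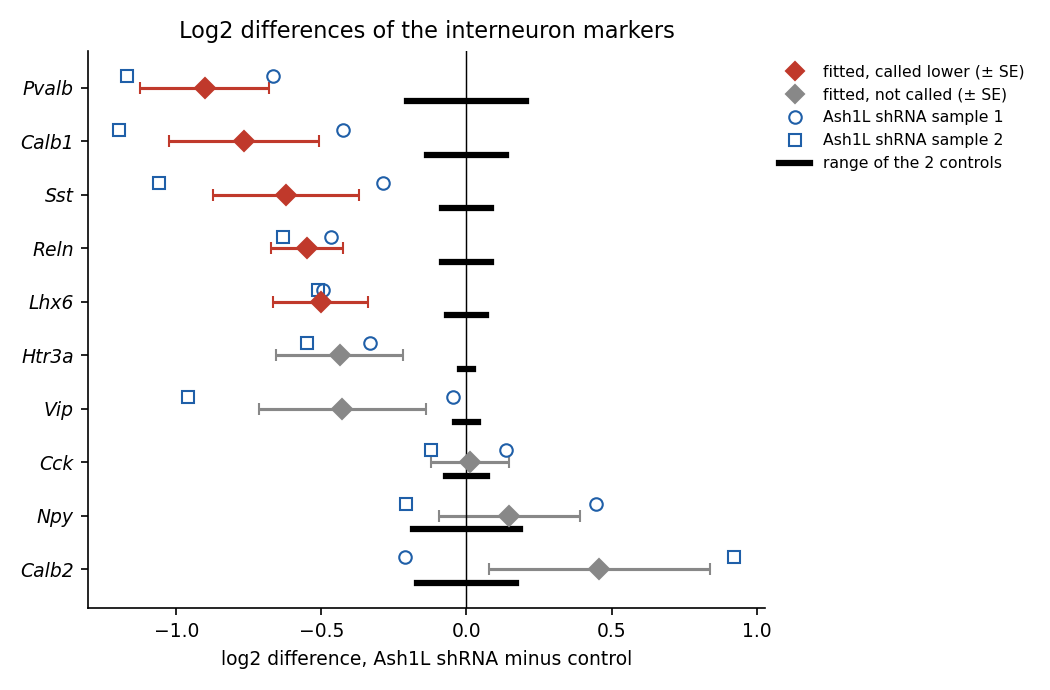
Log2 differences from control (horizontal axis) for the 10 markers, with diamonds for the fitted value ± SE (red where called lower), open circles and squares for *Ash1L* shRNA samples 1 and 2 against the control mean, and black bars for the range of the 2 controls. The fitted values run from -0.90 for *Pvalb* to 0.46 for *Calb2*, and the 2 shRNA samples lie close together for *Lhx6* and *Reln* and far apart for *Vip* and *Calb2*.

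The 7 markers with both shRNA samples below both controls were all further below in shRNA sample 2 than in sample 1. The median deviation of the 10 markers from the control mean was -0.31 in shRNA sample 1 and -0.59 in shRNA sample 2. The difference between the shRNA samples varied among markers. It was 0.91 log2 units for *Vip* and 0.77 for *Sst* and for *Calb1*, and it was 0.02 for *Lhx6*. The summed CPM of 10 activity-regulated genes also differed between the shRNA samples, at 630 in sample 1 and 3573 in sample 2. In the controls this sum was 526 to 759. Of these 10 genes 3, *Bdnf*, *Nptx2* and *Inhba*, were called higher and lay above both controls in both shRNA samples. Of all genes 8.61% were called higher and 26.5% lay above both controls. In shRNA sample 1 *Arc*, *Egr1*, *Junb* and *Nr4a1* lay below both controls. The median log2 difference of the 10 genes from the control mean was -0.12 in shRNA sample 1 and 2.31 in shRNA sample 2. *Bdnf*, the gene of a neurotrophin, was at 66.0 and 43.0 CPM in control and at 125 and 217 CPM with shRNA. *Nptx2*, which encodes a neuronal pentraxin, was at 103 and 62.3 CPM in control and at 192 and 348 CPM with shRNA. *Inhba*, the gene of an activin subunit, was at 7.23 and 4.62 CPM in control and at 11.03 and 35.03 CPM with shRNA. The part of activity-regulated genes in the marker values was not tested.

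The 4 neuropeptide markers are classic stimulus-responsive genes, and the cAMP response element (CRE) was first described in the *Sst* promoter. Their sequences before the start of transcription are shown because *Sst* was called lower whereas *Npy* and *Cck* were not. RefSeq entries on GRCm38.p6 were found for 7 of the 10 markers. Capitals mark the full CRE, TGACGTCA, or the shorter letters TGACG on either strand (CGTCA on the strand shown), which the full CRE contains on both strands. The *Sst* stretch (chr16:23890874-23890903, minus strand) holds the full CRE 48 bases before the RefSeq start, and lies inside the gene span given above because that annotation begins further upstream. The *Vip* stretch (chr10:5639098-5639217, plus strand) holds TGACG 79 bases before it, the *Cck* stretch (chr9:121495695-121495814, minus strand) holds the letters on the other strand 47 bases before it, and the *Npy* stretch (chr6:49822590-49822709, plus strand) holds no match.

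Sst: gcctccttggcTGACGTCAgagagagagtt
Vip: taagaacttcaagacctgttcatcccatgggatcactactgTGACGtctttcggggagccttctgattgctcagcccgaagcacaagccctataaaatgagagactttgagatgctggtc
Cck: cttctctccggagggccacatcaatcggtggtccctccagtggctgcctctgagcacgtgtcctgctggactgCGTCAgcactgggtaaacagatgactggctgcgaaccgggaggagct
Npy: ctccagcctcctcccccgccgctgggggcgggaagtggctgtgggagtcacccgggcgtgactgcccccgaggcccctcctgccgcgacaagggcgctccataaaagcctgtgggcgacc

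Of 32851 promoter windows of 300 bases (250 before and 50 after the start), 1.79% held TGACGTCA and 20.8% held TGACG on either strand. The 7 markers had 10 windows of this size, since some have more than 1 start. Counted by marker rather than by window, 1 held the full CRE and 3 held TGACG. The matches are a description of the letters only.

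Levels were compared between genes per exonic length, as RPKM, the CPM divided by exonic length in kilobases. In control, *Cck* had the highest mean level (207 RPKM), followed by *Npy* (163) and *Sst* (159), *Pvalb* (36.3), *Calb1* (23.9), *Vip* (13.4), *Reln* (7.73), *Calb2* (6.15), *Htr3a* (3.80) and *Lhx6* (3.18). The control samples of *Npy* (184 and 143) and *Sst* (168 and 150) overlapped, and those of every other neighbouring pair did not. For *Reln* and *Calb2* the gap in control sample 1 was within the counting error of the *Calb2* count (7.69%). *Htr3a* and *Lhx6* were at 3.74 and 3.33 RPKM in that sample, with counting errors of 9.53% and 6.65%. With *Ash1L* shRNA the order of *Calb2* (8.42) and *Reln* (5.29) was exchanged, but their samples overlapped (5.28 and 11.6 against 5.59 and 4.98). *Sst* was at 103 RPKM with *Ash1L* shRNA and *Npy* at 181, and here the samples of the pair did not overlap (130 and 76.1 against 221 and 140).

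**Figure D3:**
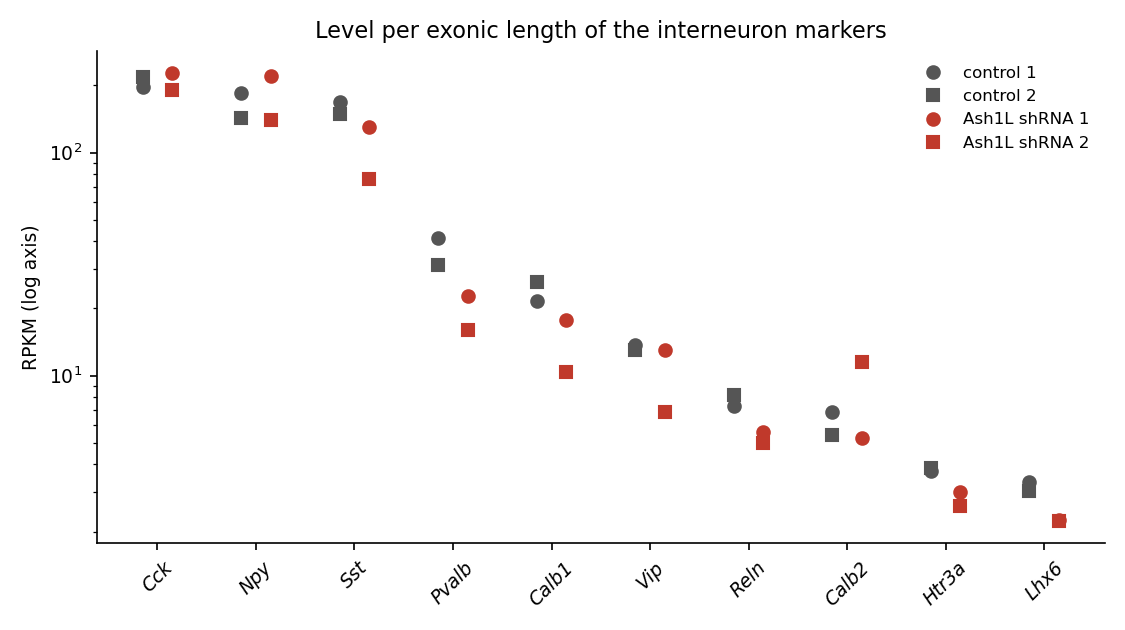
RPKM of the 10 markers (vertical log axis) in each sample, ordered by the control mean, with grey for control, red for *Ash1L* shRNA, circles for sample 1 and squares for sample 2. *Cck*, *Npy* and *Sst* lie at 76.1 RPKM or above in every sample, and *Htr3a* and *Lhx6* below 4.

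Genes that all GABAergic neurons share were read beside the markers. *Gad1* and *Gad2*, which encode the GABA-synthesizing enzymes, had log2 fold changes of -0.18 and 0.28, and *Slc32a1*, the vesicular GABA transporter gene, of 0.11, and none of the 3 was called. The geometric mean CPM of these 3 genes was 111 and 99.0 in control and 96.6 and 123 in *Ash1L* shRNA samples 1 and 2, so the groups overlapped. The 3 genes did not move together. *Gad1* was at 280 and 277 CPM in control and at 232 and 258 with shRNA. *Gad2* was at 149 and 125 in control and at 138 and 194 with shRNA, and *Slc32a1* at 32.7 and 28.1 and at 28.2 and 37.1. The summed CPM of striatal markers was also highest in shRNA sample 2 (320), and their part in this level was not tested.

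Set against this GABAergic level within each sample, 6 markers were still lower in both shRNA samples than in both controls, *Pvalb*, *Sst*, *Calb1*, *Reln*, *Lhx6* and *Htr3a*. By the same ratio 16.0% of all genes tested were lower. The ratio of *Pvalb* CPM to the GABAergic mean was 0.390 and 0.328 in control and 0.244 and 0.136 with shRNA. The ratio for *Sst* was 1.09 and 1.09 in control and 0.968 and 0.447 with shRNA, a decrease that lay mostly in shRNA sample 2. For *Vip* the ratio was 0.424 and 0.448 in control and 0.457 and 0.191 with shRNA, and the groups overlapped.

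Genes known to accompany each marker class were counted by the same rule, which called 8.28% of all genes lower and 8.61% higher. Of 9 genes that accompany *Pvalb*, 5 were called lower and 0 higher, with a median log2 fold change of -0.35. They were *Cplx1* (-0.70), a regulator of vesicle release, *Syt2* (-0.62), the calcium sensor of fast release, *Erbb4* (-0.58), a neuregulin receptor, and *Kcnc2* (-0.55) and *Kcnc1* (-0.35), the potassium channel genes of fast spiking. Of these, *Cplx1* and *Kcnc1* are also widely expressed outside the class.

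Of 8 genes that accompany *Sst*, 1 was called lower and 1 higher, with a median of -0.01. *Grin3a*, an NMDA receptor subunit gene, was lower (-0.43, SE 0.11). *Crhbp*, which encodes a binding protein of corticotropin-releasing hormone found in *Sst* cells, was called higher (0.99, SE 0.28) in the direction opposite to *Sst* itself. Its CPM was 32.4 and 19.1 in control and 57.7 and 43.2 with *Ash1L* shRNA, which did not overlap.

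Of 7 genes that accompany *Vip*, *Adarb2* (-0.62) and *Cnr1* (-0.35) were called lower and 0 higher. *Cnr1*, the cannabinoid receptor gene, is also a gene of *Cck* basket cells and is thus not particular to *Vip* cells. The enkephalin gene *Penk* was at 0.70 (SE 0.29, adjusted p = 0.3007 in the edgeR test) and is also a striatal marker. Of 4 genes that accompany the *Lamp5* class of *Reln* cells, 0 were called at an unadjusted p under 0.05, with *Lamp5* at -0.73 (SE 0.34). In all, 8 of 28 such genes were called lower and 1 higher, compared with 8.28% and 8.61% of all genes.

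Among interneuron transcription factors the most abundant, *Satb1* and *Sox6*, both active in cells of medial origin, were at -0.33 (SE 0.19) and -0.18 (SE 0.12) and were not called.

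**Figure D4:**
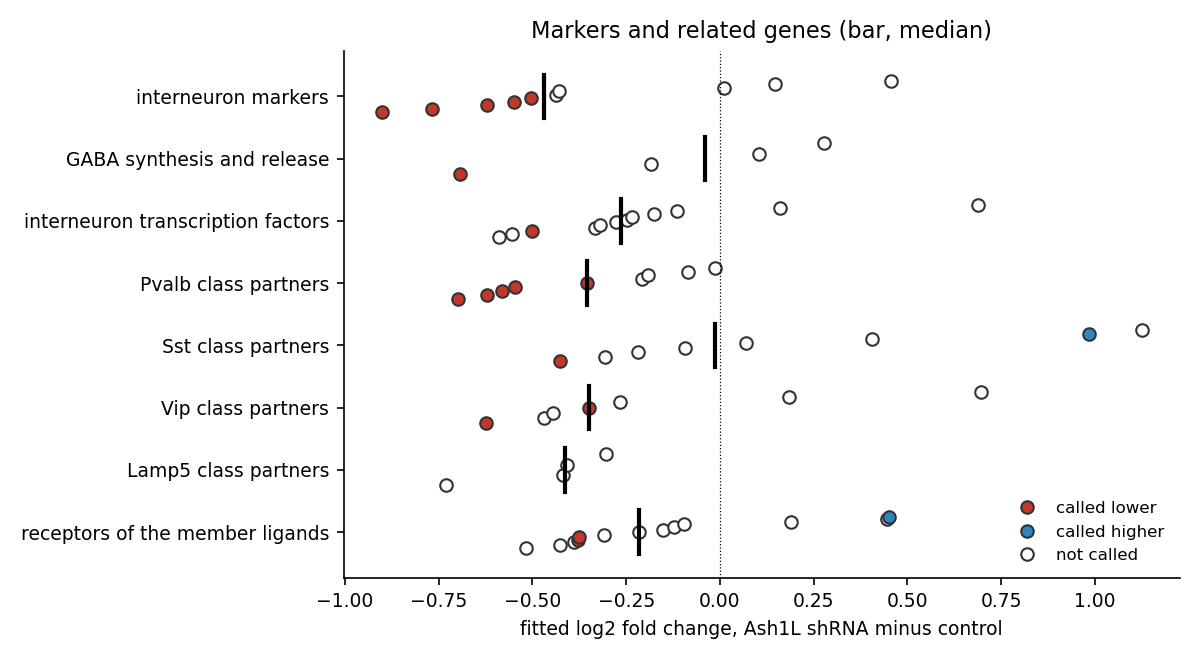
Fitted log2 fold changes (horizontal axis) of the 10 markers and of related gene groups, with 1 point for each gene (red called lower, blue called higher, white not called) and a bar for the median. Medians run from -0.47 for the markers to -0.01 for the genes that accompany *Sst*.

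Receptors for the marker ligands were read in the same samples. Of 13 tested, 2 were called lower and 1 higher, compared with 8.28% and 8.61% of all genes. *Npy1r*, a receptor of neuropeptide Y, was at -0.37 (SE 0.15) and *Cckbr*, the main cholecystokinin receptor of the cortex, at -0.38 (SE 0.11), both lower although *Npy* and *Cck* were not called. *Vldlr*, which encodes a reelin receptor, was called higher, at 123 and 111 CPM in control and 155 and 165 CPM with *Ash1L* shRNA (log2 fold change 0.45, SE 0.12), opposite to *Reln*. *Lrp8*, the other reelin receptor gene, was at 0.45 (SE 0.19, adjusted p = 0.3111 in the edgeR test) and was not called.

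Markers of other cells were read by the same rule, which called 8.28% of all genes lower and 8.61% higher. Of 8 excitatory neuron markers 3 were called lower (median -0.40), with a summed CPM of 2668 to 3151 in control and 2100 to 2482 with *Ash1L* shRNA. Of 10 pan-neuronal genes 1 was called lower (median -0.22), near the share of all genes, and 4 had fitted values above 0. Their sums were 8157 to 8614 in control and 6224 to 7521 with shRNA. Of 8 astrocyte markers 6 were called lower (median -0.65), with a summed CPM of 4856 to 5188 in control and 3123 to 4046 with shRNA. Of 8 oligodendrocyte markers 2 were called lower (median -0.32), with sums of 2648 to 2999 and 2481 to 2813, which overlapped. Of 7 leukocyte markers 5 were called lower (median -1.67), with a summed CPM of 43.9 to 81.1 in control and 18.1 to 34.2 with shRNA. None of the 7 microglia and 6 endothelial markers was called at an unadjusted p under 0.05. The part of these differences in the marker values was not tested.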

How the data were processed

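Deposited values were whole-number counts for each gene symbol. The authors aligned paired-end reads from rRNA-depleted, stranded libraries to mm10 with STAR and counted them with featureCounts, without normalization, whereas the labels name Cutadapt and TopHat2. The strand and multiple-mapping settings are not given in the sources used here. Samples were grouped by their labels. Genes were filtered with filterByExpr, scaled by TMM and tested with edgeR 4.0.16 (quasi-likelihood, R 4.3.3), with Benjamini-Hochberg adjustment over 16232 genes. SE was taken as the absolute log2 value over the root of the F statistic. RPKM used exonic lengths of the annotation matched by symbol (92.98% of symbols). No marker exon overlapped another gene of the tables. Replicates differed beyond counting error (chi-square per degree of freedom 14.8 in control and 42.3 with shRNA). The markers, lists and tests were chosen with earlier results of these data known. Named genes were all markers, *Ash1l*, and from each list the called genes or at most 4 of the highest mean CPM. *Drd2*, *Htr3b*, *Lamp5*, *Penk*, *Lrp8* and the activity genes were named after their values were seen. The test was checked on simulated counts. DESeq2 1.42.0, other scalings, filters, offsets, a replicate block and each sample left out were alternatives. A few listed genes are left unreported.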

Additional observations from a re-analysis of the deposited data

How the results depend on the processing

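In 13 settings that kept all samples (other tests, scalings and filters, a replicate block with the labelled and the crossed numbers, offsets and a stricter fold limit), 121 of 130 marker values kept their direction and side of the threshold, 7 lost the call and 2 changed sign. A 1.5-fold limit left 3 markers called lower, since *Reln* and *Lhx6* are below that size. *Cck* changed sign under scaling to GABAergic genes (-0.026) and under the length offset (-0.023). *Sst* lost its call under upper quartile scaling (-0.61), with no filter (-0.62), with at least 10 counts in every sample (-0.61) and under the GC offset (-0.56), and *Lhx6* under scaling to GABAergic genes (-0.55), and the cause was not tested. With each sample left out in turn, 2 to 6 markers were called lower and 0 to 1 higher, with medians from -0.60 to -0.31, the latter without shRNA sample 2. Over these omissions *Npy* ran from -0.22 to 0.44, *Cck* from -0.13 to 0.14 and *Calb2* from -0.20 to 0.92.

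Same-numbered samples were not paired by any source, and their deviations correlated at -0.104. The replicate block gave 5 markers lower and 0 higher (median -0.50), and the crossed pairing, added after seeing the data, also 5 and 0. Of all genes, 1344 were called lower and 1397 higher, against 829 and 785 under scaling to GABAergic genes, 491 and 765 at 1.5-fold, and 306 to 2718 and 423 to 2368 with a sample left out. At an adjusted p under 0.05 there was 1 gene, against 420 by DESeq2, 479 by the likelihood ratio test, 372 under scaling to GABAergic genes, 34 with no filter, 0 with the block, 16 with the crossed block and 2502 of 16494 without shRNA sample 1. Of the markers, 0 passed, against 2 by DESeq2, 1 (*Pvalb*) by the likelihood ratio test, 1 (*Pvalb*) under GABAergic scaling and 6 without shRNA sample 1. With 2 samples in each group an exact permutation test could not give a p below 0.333.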

Other observations

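Ratios between marker counts within a sample do not depend on how samples are scaled. The ratio of *Npy* to *Sst* counts was 0.862 and 0.748 in control and 1.34 and 1.45 in *Ash1L* shRNA samples 1 and 2. The 2 genes are co-expressed in many dendrite-targeting cells, and this ratio was higher in both shRNA samples by similar amounts, although *Sst* itself differed widely between them. The ratio of *Pvalb* to *Sst* was 0.357 and 0.302 in control and 0.253 and 0.303 with shRNA, and the groups overlapped. The ratio of *Vip* to *Pvalb* was 1.09 and 1.36 in control and 1.87 and 1.41 with shRNA. The ratio of *Calb2* to *Vip*, markers that share a cell class, was 0.208 to 0.255 in the controls and shRNA sample 1 and 0.860 in shRNA sample 2. These pairs were chosen with the values known, and the ratios were not tested.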
